A study of Mus musculus with 2 samples.

Results

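The genes described here mark the pigmented and ciliary epithelia of the eye, layers that surround the lens. They are Tyr, Tyrp1, Dct, Oca2, Slc45a2, Pmel, Mlana, Rpe65, Best1 and Ttr, and were taken as a list of names, with every array probe whose RefSeq transcript belongs to them. The list was chosen with earlier results of these data known. All 10 genes were found among the 20655 genes that the array probes could be matched to, through 12 of the 55655 gene probes. The study compared lens RNA of newborn mice, 1 array of lens-specific Foxp1 knockout lens and 1 array of control lens, both at postnatal day 0 and on a C57BL/6 mixed background. The genotype labels read Foxp1 KO for the knockout and wild-type for the control, which the series text calls a litter mate, and the treatment field of both samples names Foxp1-flox/flox together with the driver Pax6-L-Cre. The coat or eye colour of the animals, the cells in which the driver acts and the number of lenses in each RNA are not given in the sources used here. Since each genotype had 1 array, no test across animals was possible, no p-value is given, and each difference is one between these arrays.

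Melanin is made inside melanosomes, organelles that pigment cells build on fibres of the Pmel protein. Tyrosinase starts the pathway, and its relatives Tyrp1 and Dct act on later intermediates. In the eye, the retinal pigmented epithelium, the pigmented layer of the ciliary body and the iris are made from the optic cup, whereas melanocytes of the choroid and iris stroma come from the neural crest. Both lineages switch on the melanin genes through the transcription factor Mitf. The lens itself holds no pigment, and these genes are read here as markers of neighbouring cells. Which cells their signal in lens RNA came from was not tested. In RNA of a whole tissue, fewer cells of a type and less RNA per cell cannot be told apart.

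The promoters of the melanin enzymes are shown because the factor shared by the pigment lineages binds a short element in them. The sequences are from RefSeq for build GRCm38.p6 and run 5′ to 3′ on the strand of the gene, from 250 bases before to 50 bases after the annotated gene start. Capitals mark CATGTG or its reverse complement CACATG, the core that Mitf binds.
Tyr (chr7:87493463-87493762, minus strand): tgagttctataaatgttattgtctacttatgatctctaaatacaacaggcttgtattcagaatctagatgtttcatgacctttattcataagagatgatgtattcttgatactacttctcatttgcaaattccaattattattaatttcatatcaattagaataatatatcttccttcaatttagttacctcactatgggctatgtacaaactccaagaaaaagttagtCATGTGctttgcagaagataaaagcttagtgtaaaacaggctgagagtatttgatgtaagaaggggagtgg
Tyrp1 (chr4:80833963-80834262, plus strand): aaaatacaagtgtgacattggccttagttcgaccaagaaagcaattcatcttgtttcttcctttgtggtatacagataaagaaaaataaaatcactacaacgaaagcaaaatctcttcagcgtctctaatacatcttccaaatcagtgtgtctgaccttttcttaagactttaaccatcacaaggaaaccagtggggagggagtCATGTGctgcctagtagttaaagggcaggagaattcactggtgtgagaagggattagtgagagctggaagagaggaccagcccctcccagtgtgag
Dct (chr14:118052197-118052496, minus strand): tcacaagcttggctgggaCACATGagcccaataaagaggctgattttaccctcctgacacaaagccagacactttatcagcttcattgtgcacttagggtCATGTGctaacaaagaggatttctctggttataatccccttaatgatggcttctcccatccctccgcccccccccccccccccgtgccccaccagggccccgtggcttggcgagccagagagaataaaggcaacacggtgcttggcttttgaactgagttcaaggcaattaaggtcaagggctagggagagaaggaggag
A promoter of this length was at hand for 6 of the 10 genes. The core CATGTG, searched on both strands, was in 5 of these 6 promoters (Tyr, Tyrp1, Dct, Rpe65 and Oca2) and in 14.2% of the 32851 promoters of the table. The M-box, a longer element that holds the core, was in the Tyr and Tyrp1 promoters, where its core begins 21 and 46 bases before the gene start, and in 0.0213% of all promoters. The Dct promoter held the core in both orientations, 232 and 150 bases before the start. The core TAATCC, bound by Otx and Crx factors, was in the promoters of Tyrp1, Dct, Rpe65 and Best1 and in 7.06% of all promoters. These matches describe letters in a window and say nothing of binding in these lenses.

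Probe values below are processed signals, the spot brightness after background subtraction on a linear scale. A difference is the log2 signal of the knockout array minus that of the control array, after each array's 75th percentile was subtracted. The error printed with a difference is the scanner software's own estimate for the spots. It covers neither animals nor dissections. A probe counted as measured when the scanner software set most of its spots clearly over background in both lenses, and this held for 9 of the 12 probes and 8 of the 10 genes. The other 3 probes, of Rpe65, Slc45a2 and a probe of Tyr, were well above background on neither array. The 12 probes had 20 usable spots, 0 of them saturated, and 1 further spot, of Tyr, was left out as an outlier.

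All 9 measured probes read lower on the knockout array, with differences between -1.41 and -0.07 and a median of -0.44. Among all 29462 measured probes 56.8% lay below 0, and their median was -0.05. At least 2-fold lower were 2 of the 9 probes, those of Ttr and Best1, against 10.5% of all measured probes. None of the 9 was at least 2-fold higher (0 probes), against 0.838% of all. The signs depend on the scaling: dividing by array medians in place of the 75th percentile raises every probe by 1.08 and puts 8 of the 9 above 0. That scaling also puts the median of all measured probes at 1.02 and that of a list of lens genes at 1.06. It rests on dim spots, since the median signal was 23.6 in knockout lens and 50.2 in control lens. Relative to the median of all measured probes, the median of the 9 was -0.38. This value is the same under both of these scalings by construction, since they differ by a constant.

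**Figure D1:**
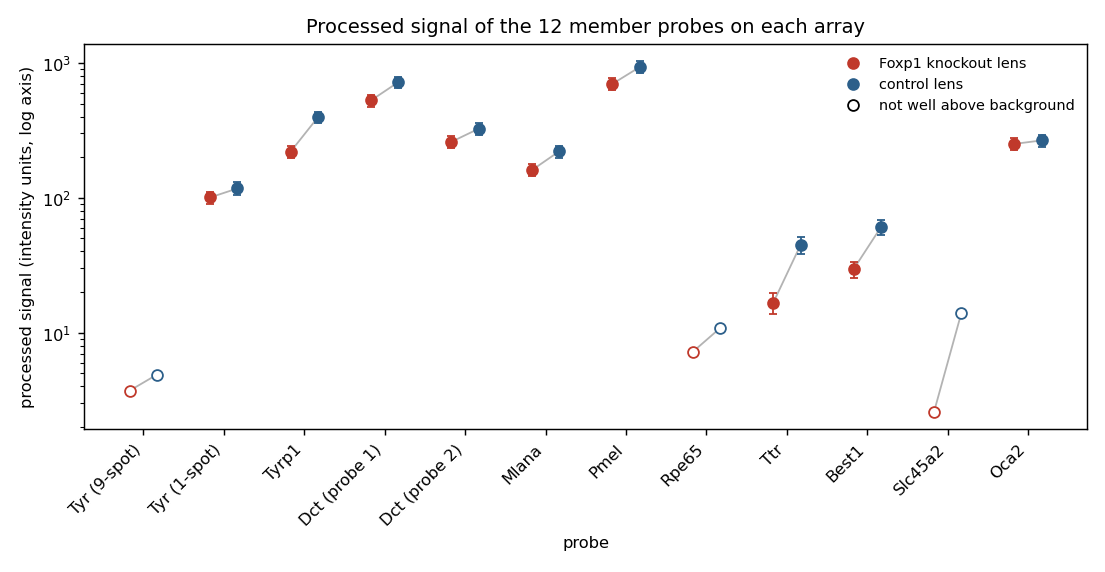
Processed signal (log axis, intensity units) of each of the 12 probes on the Foxp1 knockout array (red, left of each pair) and the control array (blue, right). Bars are the scanner software's error and are drawn for readings well above background; open circles mark readings that were not. In each of the 9 measured pairs the knockout point sits lower, from 251 in knockout lens against 266 in control lens for Oca2 to 16.6 in knockout lens against 44.6 in control lens for Ttr. Heights of different probes cannot be set against each other.

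Tyrp1, which stabilises tyrosinase and acts late in melanin synthesis, had the largest difference among the brighter probes. Its probe read 219 in knockout lens and 395 in control lens, a difference of -0.84 ± 0.21 or 1.78-fold lower. Dct, dopachrome tautomerase, was read by a pair of probes. The brighter one read 527 in knockout lens and 720.3 in control lens, and the dimmer one 260.1 in knockout lens and 325 in control lens. Their differences were -0.44 ± 0.20 and -0.31 ± 0.21, so the probes lay on the same side of 0 and within the error of each other. For Tyrp1 and for both Dct probes the knockout reading was lower by more than the spot error.

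Tyr, tyrosinase, was read by a pair of probes that differed in brightness. The brighter one, a single spot, read 101 in knockout lens and 117 in control lens, a difference of -0.21 ± 0.22, which is within the spot error. The other had 9 usable spots, and 0 of these were well above background on either array. Its spots ran from 2.44 to 6.98 with a median of 2.96 in knockout lens, and from 4.14 to 5.41 with a median of 4.91 in control lens. The negative control probe, a sequence made to bind no transcript, had medians of 2.74 in knockout lens and 4.71 in control lens over 278 spots. Apart from 2 brighter knockout spots, the replicated Tyr spots lay within the range of that negative control, and no fold is given for them. Which transcript part each Tyr probe reads is not given in the files.

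**Figure D2:**
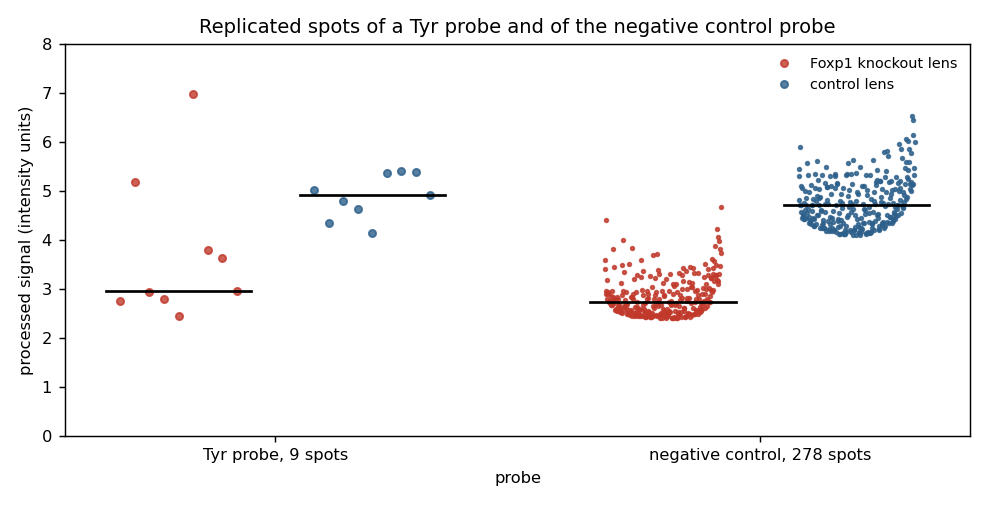
Processed signal of single spots in the knockout array (red) and the control array (blue), for the Tyr probe with 9 usable spots and the negative control probe with 278; black lines are medians and points are ordered by spot number. The Tyr medians, 2.96 in knockout lens and 4.91 in control lens, sit next to the negative control medians of 2.74 in knockout lens and 4.71 in control lens, and the 2 highest knockout spots of Tyr exceed those of the negative control.

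Among the genes of melanosome structure, Pmel, the protein that forms the fibres on which melanin is laid down, read 698 in knockout lens and 931 in control lens. The difference was -0.40 ± 0.20. Mlana, a melanosomal membrane protein that acts with Pmel in melanosome maturation, read 160.3 in knockout lens and 221 in control lens, a difference of -0.45 ± 0.21. Both knockout readings were lower by about the amount seen for Dct. Oca2, a membrane protein that sets melanosome pH, read 251 in knockout lens and 266 in control lens, and its difference of -0.07 ± 0.21 was smaller than the spot error. Slc45a2, a melanosomal transporter, read 2.59 in knockout lens and 14.0 in control lens. Neither reading was well above background, so no fold is given.

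The markers of epithelial function were dim or not above background. Rpe65, the isomerase of the visual cycle in the retinal pigmented epithelium, read 7.20 in knockout lens and 10.8 in control lens, both too dim for a fold. Best1, bestrophin, a chloride channel of the same epithelium, read 29.6 in knockout lens and 60.6 in control lens, a difference of -1.02 ± 0.27. Ttr, transthyretin, carries thyroid hormone and retinol-binding protein and is made by pigmented and ciliary epithelium, choroid plexus and liver. Its probe read 16.6 in knockout lens and 44.6 in control lens, a difference of -1.41 ± 0.33. The lowest signal called well above background was 12.1 for knockout lens and 20.6 for control lens, so the knockout reading of Ttr stood just over that limit.

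The differences of Best1 and Ttr belong to a signal range in which most probes read lower on the knockout array. For each member probe, the shift of dim probes was taken as the median difference of the gene probes, measured or not, nearest to it in mean signal. This shift was -1.08 at the signal of Ttr and -0.63 at that of Best1, with quartiles of -2.04 to -0.33 and -1.30 to -0.18, and both genes lay inside these quartiles. After subtraction of the shift, Ttr was at -0.34 and Best1 at -0.39. Many of these neighbours were not measured. Of 12145 gene probes with a control signal from 20 to 50, the range of Ttr, 4474 were measured. From 50 to 100, the range of Best1, 5516 of 7546 were. The quartiles therefore do not place Ttr and Best1 among measured probes alone. Among measured probes with a control signal under 100, as both genes have, 22.4% were at least 2-fold lower, against 4.35% of brighter ones. With the probes ordered by control signal alone, the shift was -1.50 for Ttr and -1.01 for Best1, which left them at 0.09 and -0.01.

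The brighter members lay in a range with little shift among gene probes. It was -0.00 at Tyrp1, 0.05 and 0.00 at the Dct probes, -0.03 at Mlana, 0.09 at Pmel, 0.01 at Oca2 and -0.14 at the Tyr probe. Tyrp1 lay at -0.84 after subtraction, Pmel and the brighter Dct probe at -0.49, Mlana at -0.42 and the dimmer Dct probe at -0.31. These 5 probes, of 4 genes, lay below the lower quartile of gene probes of like signal, whereas Tyr, at -0.07, and Oca2, at -0.08, lay between the quartiles. In all, 9 of 9 measured probes lay below their shift, against 47% of all measured probes, and 7 of 9 did when probes were ordered by control signal. Since the list was chosen with earlier results of these data known, these counts are a description only. After subtraction 0 of the 9 reached 2-fold, against 4.25% of all measured probes on the lower side and 3.68% on the higher.

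The E1A, ERCC and DCP control probes of the array gave a further measure of the shift, looked at after the member values were known. E1A and ERCC probes are made for synthetic RNAs that can be added to a sample, and the labels do not say whether any were. The brightest E1A probe read 242937 in knockout lens and 247974 in control lens, whereas ERCC probes had median signals of 3.73 in knockout lens and 17.8 in control lens. Between geometric mean signals of 100 and 1000, where 7 member probes lie, there were 10 control probes. The DCP probes among them share name stems, and their stem numbers recur in names of E1A probes, so the 10 need not be independent measures. All 10 read lower on the knockout array, with differences from -0.64 to -0.06 and a median of -0.23. The 7 member probes of this range had differences from -0.84 to -0.07 and a median of -0.40, and the 10588 measured gene probes a median of 0.01. Within it, an E1A probe at 490.5 in knockout lens and 567 in control lens differed by -0.19, and a DCP probe at 253 in knockout lens and 334 in control lens by -0.39. Tyrp1 lay below all 10, and the probes of Dct, Mlana, Pmel, Oca2 and Tyr lay inside their range, whose low end came from a dim DCP probe at 103 in knockout lens and 163 in control lens. Pmel lay at -0.40 and the brighter Dct probe at -0.44. Nearer to them in signal, that E1A probe at -0.19 and the DCP probes at -0.18 and -0.06 lay closer to 0. This did not hold for dimmer members. Beside Mlana, at -0.45, an ERCC probe at 154 in knockout lens and 207 in control lens differed by -0.42. Near the dimmer Dct probe, at -0.31, were the DCP probe at -0.39 and an E1A probe at -0.11. Near Tyr, at -0.21, a DCP probe lay at -0.34. Whether members fell further than control probes of like signal was not tested. All 96 ERCC probes read lower on the knockout array, with a median difference of -1.66, and 8 were well above background in knockout lens against 33 in control lens.

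**Figure D3:**
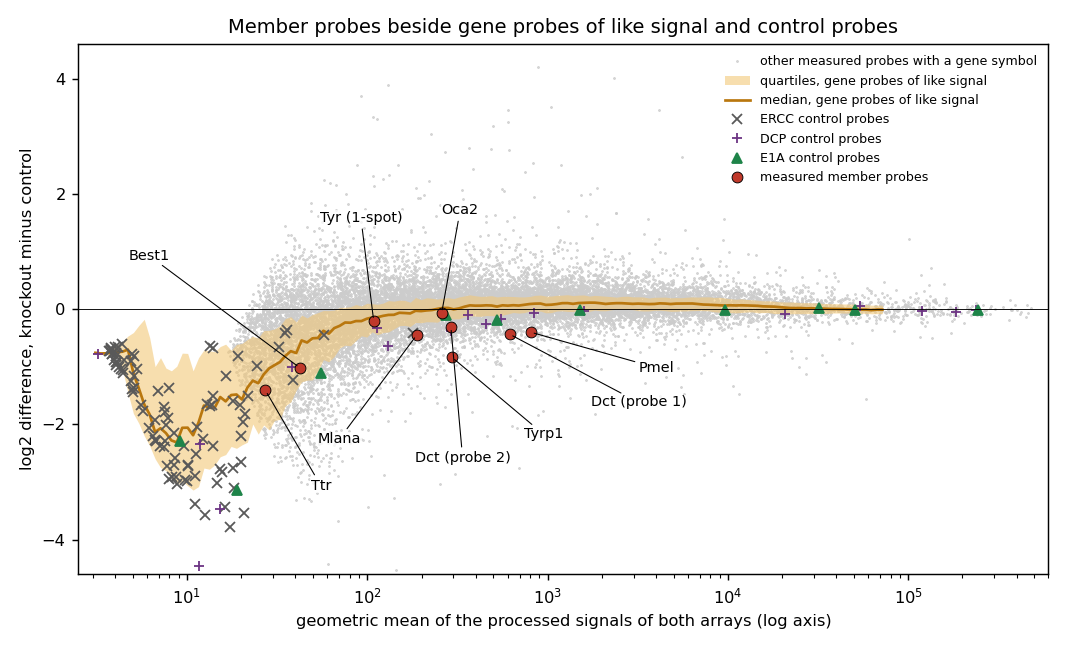
Log2 difference, knockout minus control, against the geometric mean of the processed signals of both arrays (log axis), for the 9 measured member probes (red), other measured probes with a gene symbol (grey), and E1A, DCP and ERCC control probes. The line and band are the median and quartiles of gene probes of like signal, measured or not. Ttr and Best1 sit inside the band at the dim end, and Tyrp1, at -0.84, sits below the band and below all control probes with signals between 100 and 1000.

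Other genes of pigment organelles were described as a list of 27, which covers melanosome formation, transport and the factor Mitf. Of these, 23 were measured, 12 lay below 0 and 11 above, and the median difference was -0.03. At least 2-fold lower was 1 gene and at least 2-fold higher were 0. After subtraction of the shift the median was -0.02, with 1 gene at least 2-fold lower and 1 higher. Over all 14254 measured genes these counts were 292 and 443. The higher one was Gpnmb, named after its values were seen, at 0.27 before subtraction and 1.49 after. Its readings were dim, 29.0 in knockout lens and 24.3 in control lens. Over all 14254 measured genes 49.1% lay below 0, 5.86% were at least 2-fold lower and 1.02% at least 2-fold higher, and the median was 0.01. By gene, all 8 measured members lay below the shift of like signal, against 44.1% of all measured genes. The lower melanosome gene was Rab38, a small GTPase that helps to bring Tyrp1 and tyrosinase to melanosomes, at 428 in knockout lens and 1014 in control lens, a difference of -1.23. Atp7a, the copper pump that supplies tyrosinase, read 3948 in knockout lens and 2020.4 in control lens, a difference of 0.98. Trpm1, a channel of melanocytes and bipolar cells, averaged -0.77 over 3 probes that ran from -2.03 to 0.02. Hps1, a subunit of a complex for organelle formation, lay at -0.64. Mitf itself, added here because its motif was searched, read 3251 in knockout lens and 3120.4 in control lens with its brighter probe and 228 in knockout lens and 257 in control lens with its dimmer one, differences of 0.07 and -0.16. Gpr143, Mlph and Rab27a were well above background on neither array.

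Genes of the retinal pigmented epithelium beyond the members lay on both sides of 0. Of 20 listed genes 16 were measured, 11 lay below 0, 4 were at least 2-fold lower and 0 higher, and the median was -0.13, or -0.09 after subtraction of the shift. Serpinf1, pigment epithelium-derived factor, was the bright one of the lower genes. Its probes read 611 and 189 in knockout lens against 1377 and 364 in control lens, differences of -1.16 and -0.93. The other three were dim. Kcnj13, a potassium channel, lay at -1.07, Mertk, a receptor for the uptake of photoreceptor debris, at -1.35 and Efemp1, a matrix protein, at -1.08. Subtraction of the shift left Serpinf1 at -1.10 and these at -0.73, -0.28 and -0.11 in the order given. Lrat, Rgr and Tfec were well above background on neither array, and Sfrp5 was at least 2.22-fold lower, being above background on the control array alone, where probes of like signal had a shift of -1.32. On the higher side, and named after their values were seen, Tspan10, a tetraspanin, lay at 0.97 with 156 in knockout lens and 80.2 in control lens, or 1.11 after subtraction. Stra6, a retinol transporter, and Otx2, a homeobox factor, both lay at 0.44 and Rrh at 0.22.

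Genes of the ciliary epithelium and its margin had a median below 0, with members of the list on both sides. Of 16 listed genes 15 were measured, 10 lay below 0, 1 was at least 2-fold lower, against 5.86% of all measured genes, and 0 higher, and the median was -0.40, or -0.49 after subtraction of the shift. Zic2, a zinc finger factor of the ciliary margin, was 2.84-fold lower, at 65.9 in knockout lens and 189 in control lens. Bmp4, a growth factor needed for the ciliary body, read 923 in knockout lens and 1680 in control lens, a difference of -0.85. Optc, opticin, a vitreous protein secreted by ciliary epithelium, read 1570 in knockout lens and 2661 in control lens, a difference of -0.75. Col9a1, a collagen of the vitreous, averaged -0.91 over a pair of probes at -1.38 and -0.44. Genes of fluid and ion transport, named after their values were seen, lay above 0, with the water channel Aqp4 at 0.53, the carbonic anhydrase Car2 at 0.34, the sodium pump subunit Atp1b2 at 0.33 and the cotransporter Slc12a2 at 0.15, whereas the bicarbonate transporter Slc4a4 lay at -0.39. The summed signal of the 15 measured genes was 17442 in knockout lens and 23215 in control lens. Such sums follow the brightest probes.

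Melanocyte genes and choroid plexus genes were read to set the members beside other sources. Of 7 neural crest melanocyte genes 4 were measured, 1 lay below 0, none reached 2-fold (0 genes), and the median was 0.19. After subtraction of the shift all 4 lay above 0, with a median of 0.45, and Pax3 was at 0.31 and Sox10 at 0.85. Kit, a receptor kinase of melanocytes, lay at 0.46, Ednrb at 0.28, Pax3 at -0.23 and Sox10, the lineage factor, at 0.10 from dim readings of 36.7 in knockout lens and 34.5 in control lens. Mc1r and Foxd3 were well above background on neither array. Erbb3, a receptor of the neural crest lineage, was at least 2.29-fold lower, at 6.41 in knockout lens, not well above background, and 28.0 in control lens, where probes of like signal had a shift of -1.71. The summed signal of the 4 measured genes was 1683 in knockout lens and 1383 in control lens. Most of it came from Ednrb, at 1462 in knockout lens and 1194 in control lens, so the sum does not describe the list. Of 10 choroid plexus genes 6 were measured, including Otx2 and Kcnj13 from the pigmented epithelium list, 5 lay below 0 and 1, Kcnj13, was at least 2-fold lower, with a median of -0.53. Folr1, a folate receptor, lay at -0.68 and Slc4a5, a bicarbonate transporter, at -0.62, whereas Otx2 lay at 0.44. The defining markers Kl, Kcne2 and Cldn2 were well above background on neither array.

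Retina and neuron genes lay the other way from the members. Of 13 listed genes 12 were measured, 11 lay above 0, 1 of them by 2-fold or more, and the list median was 0.52. Their summed signal was 9759 in knockout lens and 6573 in control lens. Lens genes were all measured, 15 of 15, with 10 below 0, none at 2-fold (0 genes), a median of -0.02 and a range from -0.25 for Mip to 0.34 for Foxe3. The part of retina, ciliary or pigmented tissue in the differences of the members was not tested. Foxp1, the targeted gene, read 969.9 in knockout lens and 3460.2 in control lens with its brightest probe, a difference of -1.82.

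**Figure D4:**
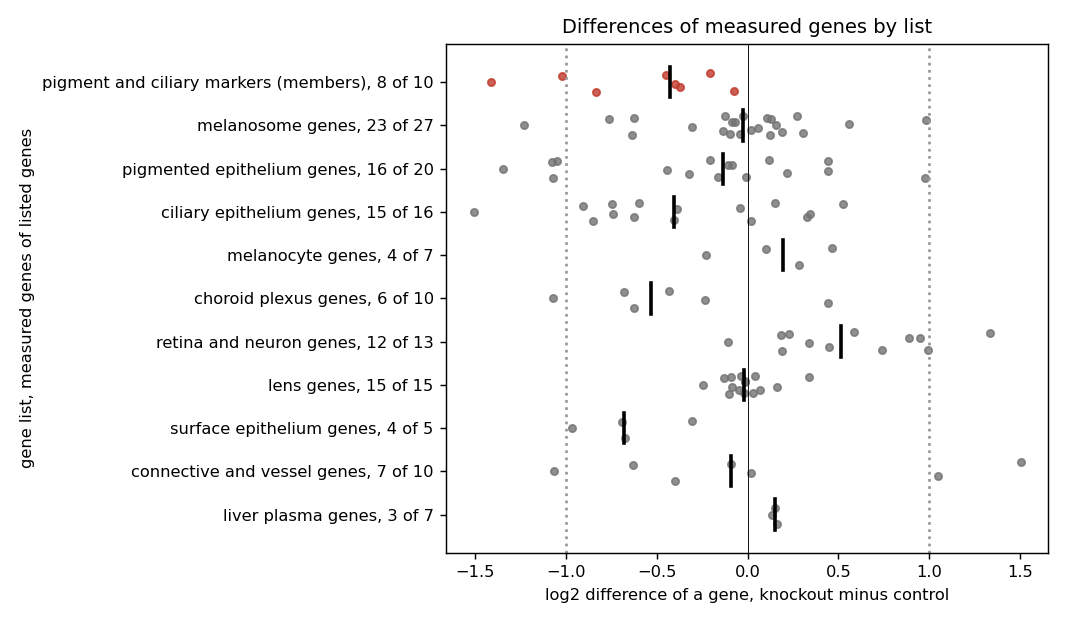
Log2 difference, knockout minus control, of each measured gene (points) by list, with the list median (black bar); dotted lines mark 2-fold, and the numbers give measured genes of listed genes. The 8 measured members (red) all lie below 0 with a median over genes of -0.43. Medians below 0 are also seen for ciliary epithelium at -0.40, choroid plexus at -0.53, surface epithelium at -0.68 and pigmented epithelium at -0.13. The retina and neuron list lies at 0.52 and the lens list at -0.02.

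The order of the members depended on the scaling. Tyrp1 ran from -0.96 to -0.68 over the scalings other than array medians, namely the 75th percentile of all or of measured probes, quantile, loess, normexp correction and subtraction of the shift. Over the same settings Ttr ran from -1.54 to -0.15 and Best1 from -1.15 to -0.12. Pmel stayed between -0.53 and -0.36, Mlana between -0.58 and -0.38, and the Dct probes between -0.56 and -0.22. Tyr lay at 0.04 under quantile normalization and below 0 under the others of these scalings. Oca2 lay between -0.20 and -0.01.

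**Figure D5:**
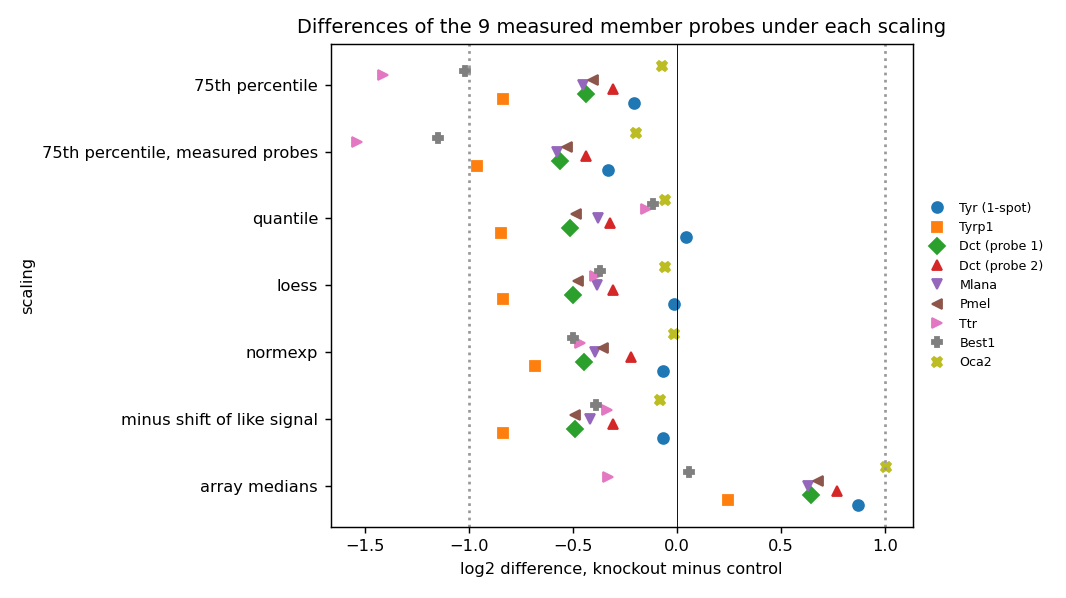
Log2 difference, knockout minus control, of the 9 measured member probes under each scaling; dotted lines mark 2-fold. Ttr and Best1 pass 2-fold under both forms of the 75th percentile alone, Tyrp1 lies between -0.96 and -0.68 in every setting shown other than array medians, and under array medians Ttr, at -0.33, is the one probe below 0.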

How the data were processed

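Total RNA of lenses, taken with Trizol from frozen tissue and labelled with Cy3, was measured on 1-colour Agilent arrays, 1 per genotype. The deposited values are spot intensities on a linear scale that Agilent Feature Extraction (version 10.7.3.1, 3 micron scan) had background-subtracted, per the file headers, with that software's error and quality flags. The headers name no step that puts the arrays on one scale. The layout is annotated to mm9, so GRCm38.p6 RefSeq tables were used for names, by unversioned transcript accession, and for promoter sequences.

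Control spots were set aside, as was any spot with an outlier flag in either lens. The log2 signal minus the array's 75th percentile over gene spots was averaged within each probe. Measured probes had over 50% of spots well above background in each lens. A gene's difference is the mean over its measured probes. Calls used a fixed size, 2-fold, since 1 array per group allows no test. Spot noise, from 281 measured probes with at least 5 spots, had an SD of 0.17 on the log2 scale. Precision is limited by having 1 array per genotype. A bound sets the bright signal against the dim signal or the lowest signal well above background, whichever is higher. Genes named are the members, Foxp1 and up to 4 genes of each list with the largest difference, plus markers not above background. The result for 1 listed marker is not reported here. The members and lists were chosen with earlier results of these data known. The shift and the calls relative to it were tested on simulated data, with 1 spot per probe and changes placed in bright probes alone. Changes in dim probes were not simulated. Python 3.11.15 and, for quantile, loess (span 0.3) and normexp (offset 50), limma 3.58.1 in R 4.3.3 were used.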

Additional observations from a re-analysis of the deposited data

How the results depend on the processing

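The count of member probes at least 2-fold lower, 2 with the 75th percentile, was 0 under array medians, quantile normalization, loess, normexp correction and subtraction of the shift, and 0 when 4-fold was asked for. Array medians gave 1 member probe at least 2-fold higher, 1 probe below 0, a median of 0.64 for the members and 0.058 for Best1, which thereby changed sign. The median of the members relative to that of all measured probes was -0.38, and was 0.063 without the filter on background, where all 12 member probes were read and the median of all probes was -0.52. With fewer or more neighbouring probes, or probes ordered by knockout signal, 9 of 9 member probes lay below the shift, and 7 of 9 with control signal. Keeping outlier spots left every count of member probes as it was. The normexp correction was chosen after the data were seen and started from the median spot signal, since the planned form on the mean spot signal was not run. Signal over background is the limit for Ttr, Best1, Rpe65, Slc45a2 and the replicated Tyr probe. No paired analysis was possible because each genotype has 1 array and no result comes from a test.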

Other observations

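Of 10 connective tissue and vessel genes 7 were measured, with 2 at least 2-fold higher and 1 at least 2-fold lower. The fibrillar collagen genes Col3a1 and Col1a1 were 2.84-fold and 2.06-fold higher, from dim readings of 94.2 and 63.8 in knockout lens against 33.5 and 31.2 in control lens. Lum, the proteoglycan lumican, was at least 2.39-fold higher, at 48.9 in knockout lens against 4.34 in control lens. The bound was wider for decorin (Dcn), another proteoglycan, which was at least 7.18-fold higher, at 158 in knockout lens against 22.2 in control lens, and Lyve1, a lymphatic vessel marker, at least 1.42-fold higher. Ptprc, a marker of blood-derived cells, was at least 2-fold lower at -1.06, which equals the shift of probes of like signal. Of 5 surface epithelium genes 4 were measured and all 4 lay below 0, with a median of -0.68 that became -0.13 after subtraction of the shift. Krt14 lay at -0.96 and Aldh3a1 at -0.69, and Krt12, the keratin of the cornea, was well above background on neither array.

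Of 7 liver plasma genes, set beside Ttr because liver makes it too, 3 were measured and lay between 0.13 and 0.16. The albumin gene Alb was at least 2.95-fold higher, at 60.2 in knockout lens and 10.5 in control lens, whereas the fibrinogen gene Fgb was at least 6.44-fold lower, at 6.42 in knockout lens and 78.9 in control lens. Each was read by 1 probe. Probes of like signal had a shift of -1.28 for Fgb and -1.34 for Alb. All 14 ERCC control probes with a control signal of 40 or more read lower on the knockout array. Their differences ran from -3.78 to -0.36, with a median of -2.43. A probe among them read 6.40 in knockout lens and 67.4 in control lens, near the readings of Fgb. Whether the fall of Fgb goes beyond that of such control probes was not tested.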
